A study of Mus musculus with 9 samples.

Results

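The genes described here encode the proteins of the cytosolic ribosome, the machine that translates nuclear messenger RNA. Members were the protein-coding genes of the GENCODE M21 mouse annotation whose symbol is an Rpl or Rps number, with at most a short suffix, or Rplp0, Rplp1, Rplp2 or Rpsa. Pseudogenes and the ribosomal S6 kinases were left out. This gave 83 of the 47937 genes in the deposited table, 32 for the small subunit and 51 for the large subunit. RNA was sequenced from CD4+ T cells of C57BL/6 mice, isolated from spleen and selected on beads for CD62L, a surface protein of naive T cells. The 3 conditions, with 3 libraries each, numbered 1, 4 and 5, were rest, stimulation and stimulation with a compound. Resting cells were not stimulated. Control cells were stimulated in vitro with antibodies against CD3 and CD28 fixed to the plate, which engage the T cell receptor and its co-receptor, after 15 min with the solvent DMSO. TEPP-46 cells were stimulated in the same way after 15 min with TEPP-46, a compound that switches on pyruvate kinase M2, the form of the last glycolytic enzyme that proliferating cells make. A dose between 50 and 100 µM is stated for TEPP-46 in general, and none for a single library. How long the cells were stimulated, and whether resting cells had been in culture, is not stated in the labels. The labels do not say that the libraries of a group came from separate animals or cultures, so a p-value measures only how these samples spread, which can be technical.

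A ribosome is built from a small subunit, which reads the messenger RNA, and a large subunit, which joins amino acids. Each ribosomal protein is needed in nearly equal numbers, and the genes that encode them are scattered over the genome. Their messenger RNAs begin with a run of pyrimidines, the terminal oligopyrimidine tract, through which the kinase mTOR and the RNA-binding protein Larp1 control how well they are translated. A T cell that leaves rest grows before it divides, and the making of ribosomes is part of that growth. Several ribosomal proteins have further roles outside the ribosome, among them Rpl5 and Rpl11, which bind the p53 inhibitor Mdm2, and Rpl22, which is needed for the development of αβ T cells.

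Pyrimidine runs can be seen in the sequence around the annotated gene start of many members. A run that ends before the start, as in the windows of Rps27l, Rpl22 and Rpl4 below, is not shown to be the tract of the message. RefSeq promoter sequence (GRCm38.p6) was matched to 63 of the 83 members, with 75 annotated starts between them. The windows below are 60 bases long, from 40 bases before to 20 bases after the start, on the strand of the gene, and capitals mark runs of at least 8 pyrimidines. They show the 3 genes called at activation (Rps27l, Rpl22, Rpl28), the member with the lowest estimate there (Rps27), the most abundant member (Rpl4), and 2 paralogs, of which Rpl7l1 has no such run.
Rps27l, chr9:66946046-66946105, plus strand, the first of 2 annotated starts: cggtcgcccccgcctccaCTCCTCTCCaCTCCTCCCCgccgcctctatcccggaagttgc
Rps27, chr3:90213629-90213688, minus strand: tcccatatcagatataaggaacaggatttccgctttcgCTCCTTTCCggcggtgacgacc
Rpl22, chr4:152325686-152325745, plus strand, the second of 2 annotated starts: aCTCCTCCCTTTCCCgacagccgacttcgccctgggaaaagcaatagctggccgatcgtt
Rpl22l1, chr3:28805468-28805527, plus strand: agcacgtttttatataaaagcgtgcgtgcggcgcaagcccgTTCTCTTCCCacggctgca
Rpl28, chr7:4792925-4792984, plus strand: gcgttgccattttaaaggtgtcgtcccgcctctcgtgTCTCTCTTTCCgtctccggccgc
Rpl4, chr9:64173347-64173406, plus strand: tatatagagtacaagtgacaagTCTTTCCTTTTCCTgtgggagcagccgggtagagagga
Rpl7l1, chr17:46782637-46782696, minus strand: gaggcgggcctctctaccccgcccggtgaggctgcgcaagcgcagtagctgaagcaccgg

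A run of at least 8 pyrimidines on the gene strand, within 50 bases on either side of the start, was present in 52 of the 63 matched members (82.5%). The share was 39.3% among all 27025 genes with such a window. A run of at least 12 was present in 36.5% of members and in 10.6% of all genes. The exact letters CTTTCC were found in 30.2% of members against 5.43% of all genes, and CTCTTTCC, which contains them, in 11.1% against 0.529%. Over the whole window of 250 bases before to 50 after the start, and on both strands, CCGGAAG (the core bound by ETS factors) occurred in 41.3% of members and 9.93% of all genes. TCTCGCGA occurred in 17.5% against 1.13%, and AAGATGGC (a YY1-type site) in 9.52% against 3.19%. The E-box CACGTG (9.52% against 8.09%) and TATAAA (11.1% against 15.7%) were at shares near those of all genes. A match is a description of letters and not a site, and the annotated start may lie some bases from the start used in these cells.

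Total counts per library were 2397304 to 5030643, and TEPP-46 replicate 4 had the fewest. Cd3e and Cd4, which define the labelled cell type, were detected in every library. All 8 T cell markers were detected, with summed levels of 4806 to 8182 CPM in resting, 3396 to 4573 in control and 5979 to 7404 in TEPP-46 libraries. CPM is the count scaled to 1000000 per library after correction of the library total, so it is a share and not an amount per cell. The 5 markers of activation summed to 163 to 278 CPM in resting and 2271 to 2380 CPM in control libraries. In TEPP-46 replicates 1, 4 and 5 they summed to 1388, 487 and 558 CPM. The 5 markers of naive T cells summed to 5090 to 7388 CPM in resting and 2404 to 2694 CPM in control libraries, and to 8322, 5788 and 7387 CPM in TEPP-46 replicates 1, 4 and 5. Of these 5 genes, 4 fell in control against resting cells, where 15.8% of all tested genes fell. In TEPP-46 against control cells 4 rose, where 9.72% of all tested genes rose. None passed in TEPP-46 against resting cells, where 6.37% of all tested genes rose and 3.92% fell. B cell markers (8 genes) summed to 3282 to 4347 CPM in resting, 459 to 778 CPM in control, and 1200, 2532 and 1051 CPM in the 3 TEPP-46 libraries. The 4 markers of granulocyte precursors were all at 0 in control libraries and summed to 131 CPM in TEPP-46 replicate 4. They were at 0.822 and 3.87 CPM in replicates 1 and 5, and at 99.4 to 145 CPM in resting libraries. The platelet genes Pf4 and Ppbp summed to 9.31, 208 and 53.5 CPM in TEPP-46 replicates 1, 4 and 5, and to at most 0.526 CPM elsewhere. Plasma cell markers (3 genes) summed to 216 to 1231 CPM over the 9 libraries, a sum over genes that moved in different directions. Jchain stood at 287 to 957 CPM in resting libraries and at 2.26 CPM or less in every control and TEPP-46 library. Xbp1 stood at 206 to 504 CPM in resting, 643 to 1045 CPM in control and 208 to 560 CPM in TEPP-46 libraries. Sdc1 lay at 4.11 to 15.8 CPM throughout. CD8, natural killer, myeloid and erythroid markers each summed to at most 126 CPM.

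Ribosomal protein transcripts made up a larger share of RNA in control cells than in resting cells, and their share differed between the TEPP-46 libraries more than between any of the groups. Summed over all members, resting libraries held 17624, 24564 and 20557 CPM in replicates 1, 4 and 5 (mean 20915 ± 3483, SD, n = 3). Control libraries held 24710, 32039 and 29131 CPM (28627 ± 3690), 1.37 times the resting mean, and the lowest control library lay just above the highest resting one. The 3 TEPP-46 libraries held 39237, 9550 and 19613 CPM (22800 ± 15098). Replicate 1 was thus above every control library, replicate 4 below every resting library, and replicate 5 within the resting range, a spread of 4.11 times within 1 group. As a percentage of all counts, the family took 1.75% to 2.39% in resting cells, 2.67% to 3.32% in control cells, and 3.67%, 0.952% and 1.88% in TEPP-46 replicates 1, 4 and 5. In such bulk libraries, fewer cells of a type and less RNA per cell cannot be told apart.

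**Figure D1:**
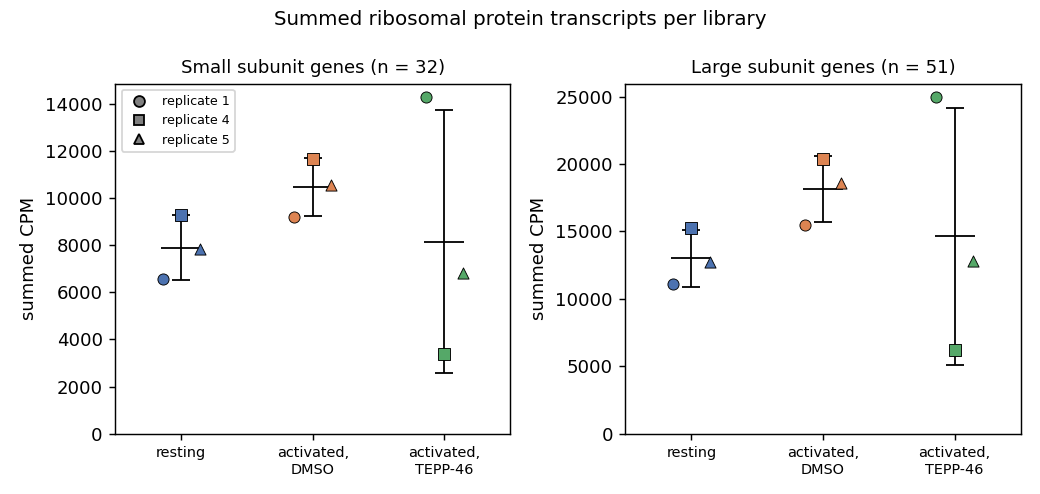
Summed CPM of small subunit genes (left, 32 genes) and large subunit genes (right, 51 genes) in each library, by group and replicate. Points are libraries, and bars are the mean with its SD over 3 libraries. Both subunits show the same arrangement, with TEPP-46 replicate 1 highest and replicate 4 lowest of all 9 libraries.

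The sums were also taken by subunit. Small subunit genes summed to 7893 ± 1372 CPM in resting, 10475 ± 1220 in control and 8156 ± 5572 in TEPP-46 libraries, and large subunit genes to 13022 ± 2114, 18151 ± 2473 and 14644 ± 9529 CPM. Control and resting libraries did not overlap for the large subunit. For the small subunit the lowest control library, at 9216.6 CPM, lay below the highest resting one, at 9296.5 CPM. The small subunit took 37.2% to 38.1% of the family's counts in resting libraries, 36.2% to 37.3% in control and 34.8% to 36.4% in TEPP-46 libraries. The TEPP-46 range lay below the resting range and overlapped the control range. Within each group the members also varied in common. The median SD of log2 CPM over the 80 tested members was 0.27 in resting, 0.18 in control and 1.06 in TEPP-46 libraries, beside 0.31, 0.20 and 0.52 over all tested genes. When each member was taken as its share of the family, the median SD was 0.12, 0.11 and 0.23.

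Stimulation without the compound was compared with rest to ask which ribosomal protein genes change on activation. Of 80 tested members, 3 rose and none fell (edgeR quasi-likelihood test on all 9 libraries, Benjamini-Hochberg adjustment over 12536 genes, threshold 0.05). Of all genes tested, 15.5% were called higher and 15.8% lower. The 3 were Rps27l, Rpl22 and Rpl28. DESeq2 called 6 members higher (18.5% of all genes) and none lower, and limma-voom called 3 higher (17.3% of all genes) and none lower. The median log2 fold change of members was 0.46, with 71 of 80 above 0, beside -0.04 over all genes. In 42 members every control library lay above every resting library, and in 1, Rps27, every control library lay below. Libraries of these groups were apart in this way for 59.2% of all genes, and for 29.2% upward. The 42 were 17 of 32 small and 25 of 48 large subunit genes.

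The number of calls rested on which libraries shared the estimate of spread. With only the 6 resting and control libraries fitted, 38 members passed upward and 1 (Rps27) downward, where 23.9% and 23.3% of 12153 genes did. Without TEPP-46 replicate 1 the count was 17 upward (19.2% of all genes), and without TEPP-46 replicate 4 it was 14 (19.9%), although neither library belongs to the comparison. Limma-voom with library quality weights, which lets an aberrant library count for less, called 35 members higher and 4 lower, where 28.7% and 29.6% of all genes were called. Leaving out any control library, or resting replicate 4 or 5, left no member past the threshold, and without resting replicate 1 there was 1. In the fits that left no member, 1226 to 1408 genes were called higher and 1090 to 1432 lower, of 12910 to 12982 tested. Without resting replicate 1 these were 1609 and 1749 of 12936. Scaled to the summed counts of the family instead of to the whole library, the median became 0.02, and no member passed in either direction, where 11.7% of all genes did.

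**Figure D2:**
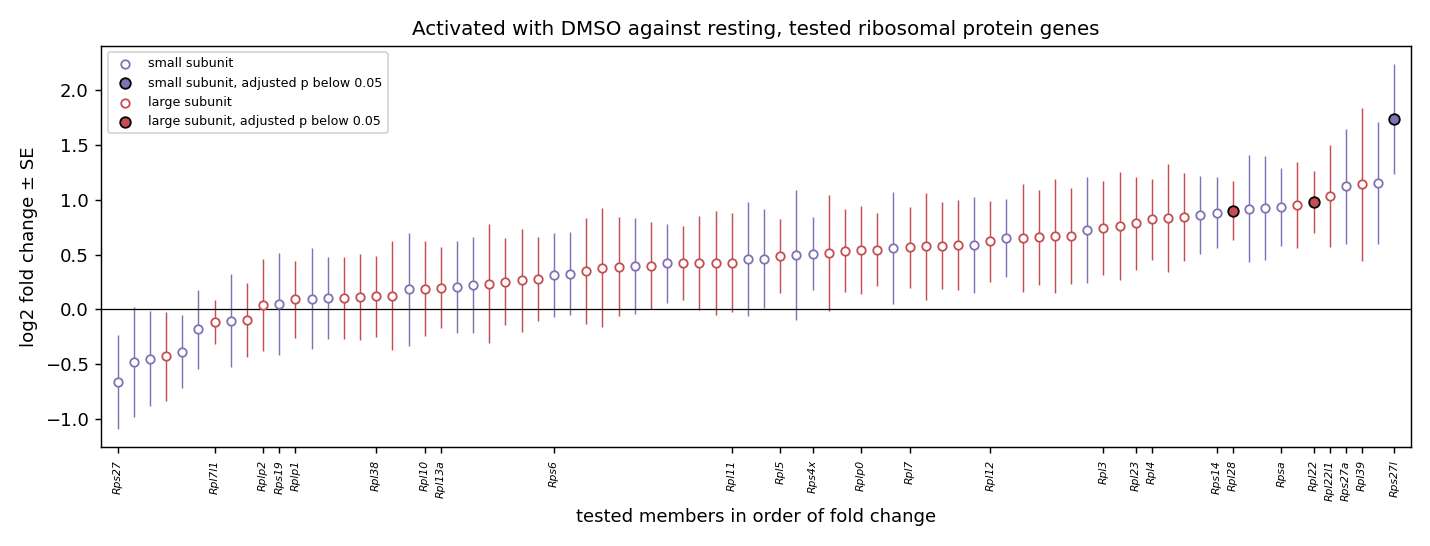
Log2 fold change ± SE of the 80 tested members in control against resting cells, ordered by size, from the fit of all 9 libraries. Filled points passed an adjusted p of 0.05 (Rps27l, Rpl22 and Rpl28), and names are given for members described in the text. Most values lie above 0, from -0.66 for Rps27 to 1.74 for Rps27l.

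The highest and the lowest fold change estimate belonged to a pair of paralogs, Rps27l and Rps27, whose products are alternative versions of the same small subunit protein. Rps27l is known as a target of p53. Rps27l stood at 31.2, 25.2 and 17.7 CPM in resting replicates 1, 4 and 5 and at 78.9, 84.1 and 84.3 CPM in control libraries. The groups did not overlap, and the log2 fold change was 1.74 ± 0.50 (SE), adjusted p = 0.0253. Rps27 stood at 366, 449 and 306 CPM in resting libraries and at 171, 270.3 and 266 CPM in control libraries, again with no overlap but in the other direction. Its log2 fold change was -0.66 ± 0.43 (adjusted p = 0.264), and it passed in the fit of the 2 groups (adjusted p = 0.0423) and in limma-voom with quality weights (0.0386). Scaled to the family, the estimates were 1.25 (adjusted p = 0.0895) for Rps27l and -1.14 (0.0899) for Rps27. With that scaling both passed without TEPP-46 replicate 4 (adjusted p = 0.0182 and 0.0161) and with DESeq2 (0.0408 and 0.0379), alternatives chosen after the data were seen. Over all alternatives the estimate ran from 1.25 to 1.95 for Rps27l and from -1.16 to -0.48 for Rps27. Counted against each other, there were 8.53, 5.62 and 5.77 Rps27l reads per 100 Rps27 reads in resting libraries and 46.01, 31.1 and 31.7 in control libraries. TEPP-46 libraries gave 26.5, 19.2 and 15.8, between the other groups and overlapping neither, although the level of each gene overlapped. An exact two-sided permutation test gave p = 0.1 for each of the 3 comparisons, the smallest value that 3 libraries against 3 allow (adjusted p = 0.225 over 9 tests on 3 paralog pairs). A related gene outside the symbol rule, Rps27rt, stood at 1.95 to 10.5 CPM in resting and control libraries and did not pass (log2 fold change -0.96 ± 0.74, adjusted p = 0.344).

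Rpl22 and its paralog Rpl22l1 were both higher in all 3 control libraries than in any resting library, so their ratio was not apart. Rpl22 stood at 26.6, 36.0 and 31.7 CPM at rest and at 55.4, 72.7 and 58.2 CPM in control cells, a log2 fold change of 0.98 ± 0.28 (adjusted p = 0.0252). Rpl22l1 stood at 22.2, 26.0 and 16.6 CPM and at 44.7, 39.9 and 47.9 CPM, a log2 fold change of 1.03 ± 0.47 (adjusted p = 0.117). Per 100 Rpl22 reads there were 52.4 to 83.5 Rpl22l1 reads at rest and 54.9 to 82.3 in control cells (exact permutation p = 0.7). Background for the pair is that Rpl22 protein can repress Rpl22l1. Rpl28, a large subunit protein, stood at 65.7, 84.9 and 76.7 CPM and at 141, 148 and 135 CPM, a log2 fold change of 0.90 ± 0.27 (adjusted p = 0.0272). The calls of Rpl22 and Rpl28 were lost on leaving out any single resting or control library, and that of Rps27l on leaving out any control library or resting replicate 4 or 5.

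In another pair, Rpl7 and Rpl7l1, the paralog took a smaller part in every control library than in any resting one. Rpl7l1 is a paralog of the large subunit gene Rpl7 and is counted with the factors that assemble the nascent large subunit. Rpl7l1 stood at 122, 138 and 113 CPM at rest and at 114, 127 and 103 CPM in control cells, so the groups overlapped. Rpl7 stood at 342, 448 and 385 CPM and at 475, 646 and 620 CPM with no overlap (log2 fold change 0.57 ± 0.37, adjusted p = 0.265). Reads of Rpl7l1 per 100 reads of Rpl7 were 35.6, 30.9 and 29.3 at rest and 23.9, 19.7 and 16.6 in control cells (exact permutation p = 0.1, the smallest possible, adjusted p = 0.225).

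**Figure D3:**
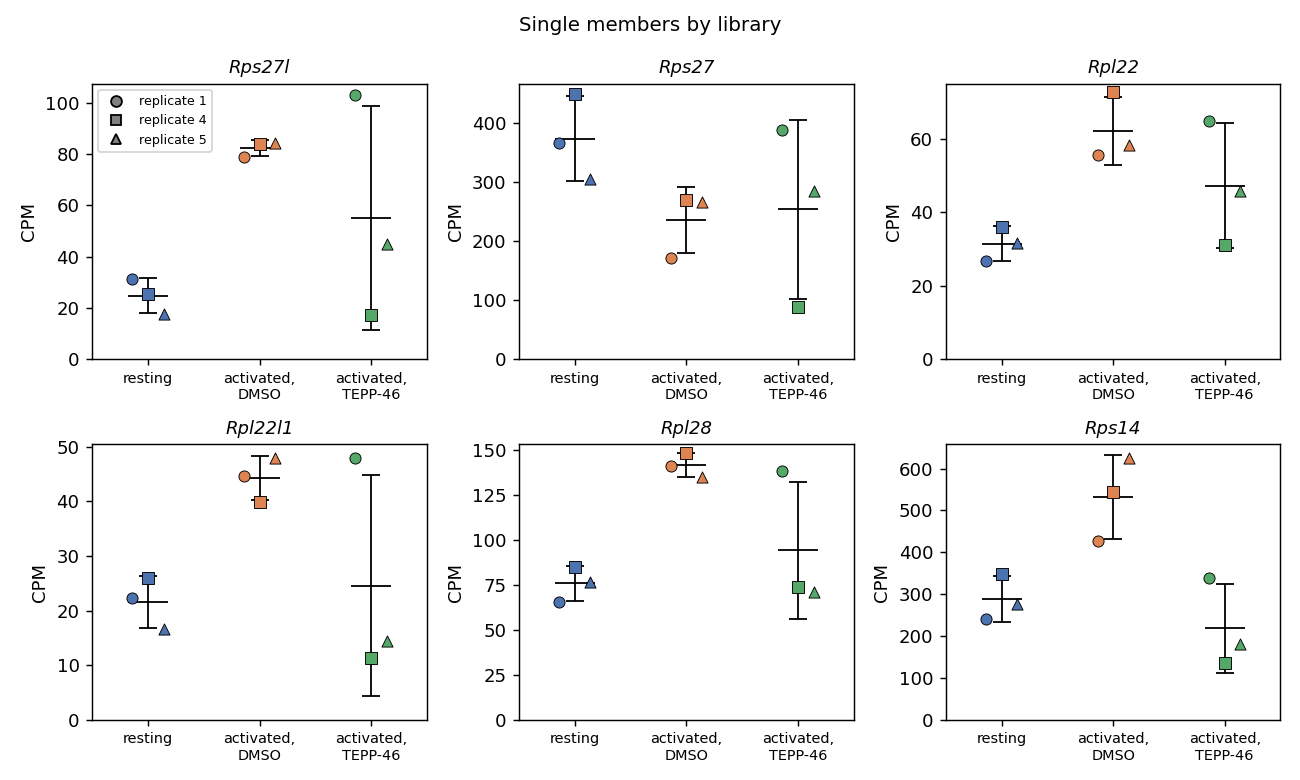
CPM of 6 members in each library, by group and replicate, with the mean and SD over 3 libraries. Control libraries of Rps27l, Rpl22, Rpl22l1, Rpl28 and Rps14 all lie above the resting ones and those of Rps27 all lie below, and the TEPP-46 libraries of Rps14 all lie below the control ones.

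Other members with roles of their own did not pass the test at activation. The stalk of the large subunit, which recruits the translation factors, is made by Rplp0, Rplp1 and Rplp2. Rplp0 stood at 1084, 1380.0 and 1060.1 CPM at rest and 1405, 1937 and 1791 CPM in control cells (log2 fold change 0.54 ± 0.40, adjusted p = 0.326). Rplp1 (0.09 ± 0.35, adjusted p = 0.866) and Rplp2 (0.04 ± 0.42, adjusted p = 0.954) had smaller estimates, with overlapping libraries. Rpl5 and Rpl11, which leave the nucleolus together when ribosome assembly fails, had log2 fold changes of 0.49 ± 0.34 (adjusted p = 0.298) and 0.42 ± 0.45 (0.501). Rpl5 lay at 318 to 334 CPM at rest and 447 to 466 CPM in control cells, with no overlap. Rps6, the substrate of the S6 kinases, had 0.32 ± 0.38 (adjusted p = 0.563), and Rps19, mutated in Diamond-Blackfan anaemia, 0.05 ± 0.47 (0.951). Rpsa, also known as a laminin receptor, stood at 230, 318 and 268 CPM and at 442, 606 and 510 CPM (0.93 ± 0.36, adjusted p = 0.0694). Rps27a, made as a fusion with ubiquitin, stood at 115, 114 and 81.4 CPM and at 188, 238 and 249 CPM (1.12 ± 0.53, adjusted p = 0.130). Rpl39, a short protein of the exit tunnel, stood at 12.8, 24.7 and 19.0 CPM and at 33.0, 46.6 and 44.9 CPM (1.14 ± 0.70, adjusted p = 0.236). Rpl3, which lies at the peptidyl transferase centre, had 0.74 ± 0.43 (adjusted p = 0.207), the late-joining Rpl10 had 0.19 ± 0.44 (0.772), and the X-linked Rps4x 0.51 ± 0.33 (0.270). Rpl13a, a part of the interferon-controlled GAIT complex, had 0.20 ± 0.37 (adjusted p = 0.717), and Rpl38, which aids translation of Hox messages, 0.12 ± 0.37 (0.832).

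Cells stimulated with TEPP-46 were compared with control cells to ask which ribosomal protein genes differ with the compound. Of 80 members none rose and 1, Rps14, fell (edgeR, threshold 0.05), where 9.72% of all 12536 genes were called higher and 6.43% lower. DESeq2 (11.1% of all genes lower) and limma-voom (8.91%) each called 1 member lower and none higher. The median log2 fold change of members was -0.33, with 5 of 80 above 0, beside 0.04 over all genes. It was -0.55 with limma-voom and -0.58 with quality weights. Scaling to total counts alone moved the median of all genes to -0.09, that of members to -0.48, and the share of all calls that were higher from 60.2% to 43.9%. In 3 members (Rps14, Rpl12 and Rpl24) every TEPP-46 library lay below every control library, and in none above. The libraries were apart in either direction for 39.7% and upward for 19.7% of all genes. The control libraries here are the same as those in the comparison with resting cells, so a high control value enters both.

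The group mean covers 3 unlike libraries. Against the mean of the control libraries, the median log2 difference of members was 0.50 in TEPP-46 replicate 1, -1.60 in replicate 4 and -0.55 in replicate 5. In replicate 1, 70 of 80 members lay above all 3 control libraries, a position that 38.2% of all genes held. In replicate 4, 79 members lay below all 3 control libraries, beside 44.1% of all genes, and the median member was 3.03-fold lower. In replicate 5, 66 members lay below all of them, beside 39.8% of all genes. The order from replicate 1 through 5 to 4 held in 78 of 80 members, with Rpl28 and Rpl7l1 the exceptions, and in 26.9% of all genes. That order was chosen after the values were seen. The summed activation markers had the same order, with 1388, 558 and 487 CPM in replicates 1, 5 and 4. So did the summed markers of naive T cells, with 8322, 7387 and 5788 CPM. Of the single activation markers, Il2ra, Tfrc and Cd44 held that order, and Mki67 and Nme1 did not. Malat1, a nuclear RNA, stood at 2521, 12240.0 and 12770.0 CPM in replicates 1, 4 and 5, beside 2058 to 4103 CPM in control and 4354 to 8349 CPM in resting libraries. Other protein-coding genes with under 1000 bases of exon took 1.27%, 0.691% and 0.841% of counts in replicates 1, 4 and 5, beside 0.950% to 1.01% in control libraries. The part of these values, of depth, and of the naive T cell, B cell, platelet and granulocyte genes given above in the members' levels was not tested.

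**Figure D4:**
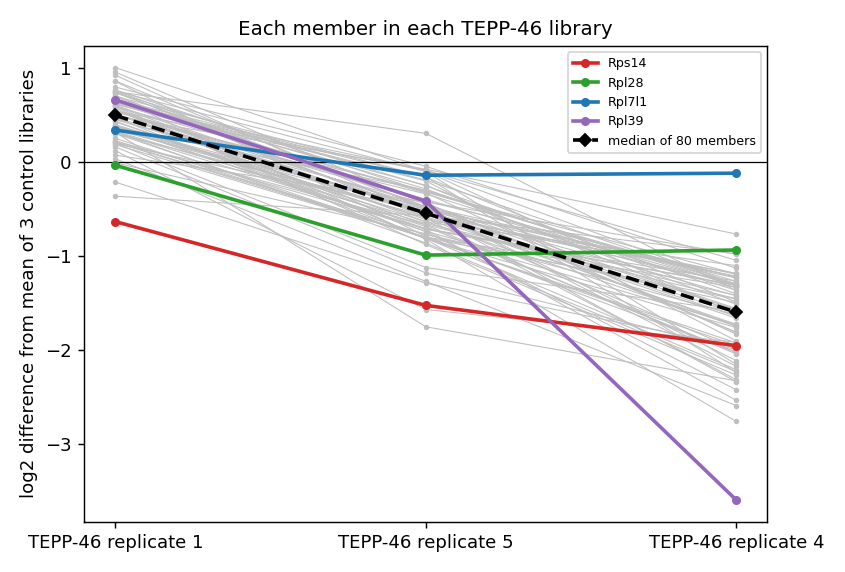
Log2 difference of each of the 80 tested members in each TEPP-46 library from the mean of the 3 control libraries, computed on log2(CPM + 0.5). Grey lines are members, coloured lines the 4 named genes, and the dashed line the median. The median falls from 0.50 in replicate 1 to -1.60 in replicate 4, while Rpl7l1 and Rpl28 do not follow that order and Rps14 is below 0 in all 3.

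The outcome depended on which TEPP-46 libraries were included. Without TEPP-46 replicate 1, 49 of 80 members passed downward (16.4% of 12982 genes), with a median of -0.99. Without TEPP-46 replicate 4, no member passed (13.8% of all genes did), the median was 0.07, and 47 members had a fold change above 0. Without replicate 5 none passed, with a median of -0.22, where 431 of 12942 genes were called higher and 216 lower. Limma-voom with library quality weights called 43 members lower and none higher, where 23.8% of all genes were called lower. The fit of only the 6 libraries compared called no member and 12.2% of all genes.

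Rps14, a small subunit protein whose reduced dose underlies the anaemia of a human chromosome deletion syndrome, was the 1 member past the threshold. It stood at 426, 544 and 625 CPM in control libraries and at 338, 135 and 182 CPM in TEPP-46 replicates 1, 4 and 5. All 3 TEPP-46 libraries were below the controls, replicate 1 included, where the median member was above them. The log2 fold change was -1.28 ± 0.33 (adjusted p = 0.028), and -0.80 (adjusted p = 0.186) when scaled to the family. The call was lost without any 1 control library, without TEPP-46 replicate 4 or 5, and in the fit of the 6 libraries (adjusted p = 0.0526). Against rest, Rps14 had been higher in all 3 control libraries (240.4, 348 and 276 CPM at rest, log2 fold change 0.88 ± 0.33, adjusted p = 0.0615), and TEPP-46 libraries overlapped resting ones.

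Rpl12, a protein at the base of the stalk, had the next smallest p. It stood at 121, 121 and 110 CPM in control and at 101, 29.7 and 47.7 CPM in TEPP-46 libraries (log2 fold change -0.97 ± 0.37, adjusted p = 0.0969). Rpl28 followed, at 138, 73.6 and 70.9 CPM in TEPP-46 libraries, so that replicate 1 lay within the control range (-0.59 ± 0.27, adjusted p = 0.150). Rpl24, a late-joining large subunit protein, was apart at the lowest levels of any tested member, 6.84, 9.56 and 7.53 CPM against 6.02, 3.77 and 5.15 CPM (-0.66 ± 0.38, adjusted p = 0.247). Its exons overlap those of the predicted gene Gm28037, and reads of these cannot be told apart. Rpl39 stood at 65.2, 2.93 and 30.6 CPM in TEPP-46 replicates 1, 4 and 5, and had the largest deficit of any member in replicate 4, -3.60 on the log2 scale. Rpl7l1 was nearly level at 145, 105 and 103 CPM (log2 fold change 0.04 ± 0.20, adjusted p = 0.908). Of the activation pair, Rps27l stood at 103, 17.2 and 45.1 CPM (-0.57 ± 0.49, adjusted p = 0.432) and Rps27 at 388, 89.1 and 285 CPM (0.11 ± 0.43, 0.878).

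Against resting cells, TEPP-46 cells showed no member past the threshold in either direction by edgeR, DESeq2 or limma-voom. Of all genes, edgeR called 6.37% higher and 3.92% lower, DESeq2 called 16.7% in all and limma-voom 8.68%. No member had libraries apart, beside 26.8% of all genes. The median log2 fold change was 0.11, with 53 of 80 above 0, beside 0.02 over all genes. Its sign turned in other fits, to -0.12 with limma-voom (27 of 80 above 0), -0.22 with quality weights (17 of 80) and -0.01 with the replicate number as a block (38 of 80). With quality weights 1 member passed upward and 8 downward, where 14.4% and 12.4% of all genes did. Rps27l (1.16 ± 0.50, adjusted p = 0.170), Rpl22 (0.59 ± 0.29, 0.219) and Rpl23 (0.64 ± 0.42, 0.368) had the smallest p-values. Rpl23, another large subunit protein that binds Mdm2, stood at 91.5, 119 and 109 CPM at rest and at 284, 59.8 and 154 CPM in TEPP-46 replicates 1, 4 and 5. Without TEPP-46 replicate 4, Rps27l, Rpl23 and Rpl39 rose (8.09% of all genes were higher) and the median was 0.50. Without replicate 1, Rps29, Rpl12, Rpl30, Rpl21, Rps2 and Rps14 fell (6.29% of all genes were lower) and the median was -0.57.

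Levels between genes were compared as counts per kilobase of annotated exon, scaled to 1000000 per library. Rpl4 (3553), Rpl32 (3291) and Rplp0 (2754) were highest as means over the 9 libraries. Rps15a (62.6), Rpl35a (54.7), Rpl22 (49.7), Rpl22l1 (46.9) and Rpl24 (18.5) were lowest of those tested. For Rpl4, whose product lines the exit tunnel, the group means were 2584 ± 275 at rest, 5024 ± 308 in control and 3051 ± 1592 in TEPP-46 cells. Exon lengths include all annotated transcripts, so a gene with a long rare isoform has a lower level per length. The 10 members with the most reads took 41.6% of the family's counts, and Rpl4 alone 9.57%. The members not tested were paralogs known from testis or muscle. Rpl10l had no read in any library, Rpl3l had 2 reads in all and Rpl39l 5, and a floor of 3 reads equals 0.596 to 1.25 CPM per library.

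The copies of these genes limit how exactly a read can be placed. Ribosomal protein messages have been copied back into the genome many times as processed pseudogenes, and the labels do not say how reads that fit several places were counted. Of all stretches of 31 bases in a member's coding transcripts, a median of 54.5% occurred in no transcript of another gene. The share was under 50% in 35 members and under 25% in 18, and was lowest for Rpl35 at 0.980%. At least 1 annotated pseudogene shared 20% or more of the stretches for 60 members. The 268 pseudogenes named after members held 2.69% to 3.19% as many reads as the members, with no group apart from another. Members with at least 50% unique sequence summed to a control-to-resting ratio of 1.37, and those under 50% also to 1.37. In the first class the lowest control library (14171 CPM) lay below the highest resting one (14207 CPM), and in the second the libraries did not overlap. Libraries of control and resting cells were apart upward in 22 of 45 and 20 of 35 tested members of these classes. Over 80 members, Spearman's rho between unique share and log2 fold change was -0.10 for control against resting and 0.25 for TEPP-46 against control, a description over genes that share libraries and sequence. Exons of 22 members overlap those of another gene, for example Rps2 with Snhg9, and 30 members hold a snoRNA gene within their bounds.

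**Figure D5:**
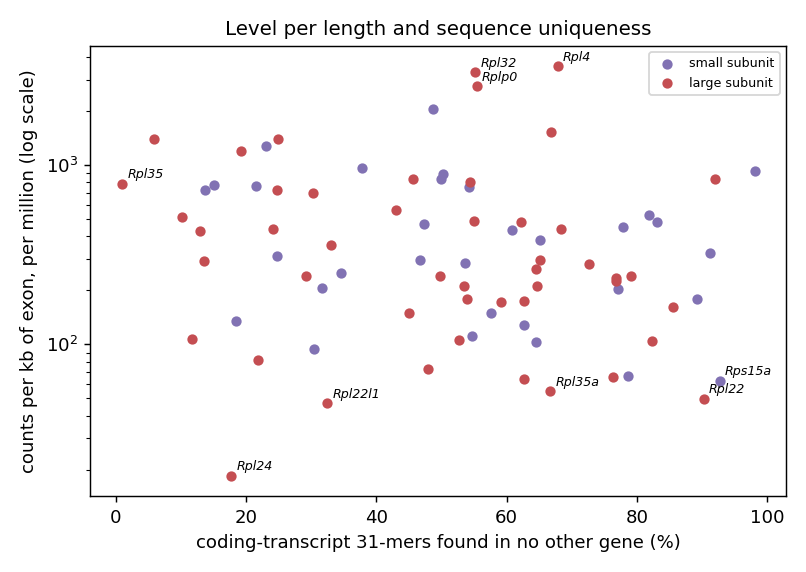
Level per length (counts per kilobase of exon scaled to 1000000 per library, mean of 9 libraries, log scale) against the percentage of 31-base stretches of coding transcripts found in no other gene, for the 80 tested members. Named points include the 3 highest and 5 lowest. The 3 highest had 55.2% (Rpl32) to 67.8% (Rpl4) unique stretches, and the 5 lowest 17.8% (Rpl24) to 92.7% (Rps15a). Spearman's rho between level and uniqueness was -0.197 over the 80 members.

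The members' changes were also set beside the letters of their promoters. Of 60 tested members with a promoter window, the 50 with a run of at least 8 pyrimidines had a median log2 fold change of 0.44 in control against resting cells, and the 10 without one 0.41. In TEPP-46 against control cells the medians were -0.36 and -0.17. For CCGGAAG the medians were 0.46 in 25 members with it and 0.42 in 35 without it at activation. For TATAAA they were 0.98 in 7 members with it and 0.42 in 53 without it. These are descriptions of small classes without a test.

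Genes that work beside the ribosomal proteins were described from lists drawn up with earlier results of these data known. Of 19 other messages with a terminal oligopyrimidine tract, 6 rose and none fell in control against resting cells, with a median of 0.52, where 15.5% of all genes rose and 15.8% fell. Eef2, the elongation factor that moves the ribosome along, had a log2 fold change of 1.19 ± 0.23 (adjusted p = 0.00428), the splicing factor Hnrnpa1 1.73 ± 0.46 (0.018), the poly(A)-binding protein Pabpc1 1.03 ± 0.28 (0.0196) and the histone chaperone Nap1l1 0.96 ± 0.30 (0.0335). In TEPP-46 against control cells 3 of the 19 fell, Pabpc4 (-0.87 ± 0.20, adjusted p = 0.0192), Hnrnpa1 (-1.70 ± 0.46, 0.0336) and Nap1l1 (-1.04 ± 0.30, 0.041), with a median of -0.46, where 6.43% of all genes fell. Against rest, the initiation factor Eif4a2 fell in TEPP-46 cells (-1.32 ± 0.24, adjusted p = 0.00968). Of 5 tested ribosomal protein genes outside the symbol rule, Rack1, the scaffold on the small subunit head, rose at activation (0.89 ± 0.21, adjusted p = 0.00935). Rack1 stood at 670.5, 703 and 625 CPM in control cells and at 507, 415 and 336 CPM in TEPP-46 cells, with no overlap (-0.67 ± 0.21, adjusted p = 0.0507). Fau, a fusion with a ubiquitin-like protein, followed the members, at 309, 69.0 and 189 CPM in TEPP-46 replicates 1, 4 and 5.

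Regulators of ribosomal protein translation changed in both directions. Of 21 tested, 7 rose and 2 fell at activation (15.5% and 15.8% of all genes), with a median of 0.13. Eif4ebp1, the mTOR-controlled repressor of initiation, stood at 21.2, 16.0 and 19.4 CPM at rest and 244, 200.3 and 180.5 CPM in control cells (3.46 ± 0.36, adjusted p = 2.77e-04). Rragd, a GTPase that brings mTOR to the lysosome, stood at 3.23 to 5.41 CPM and 30.6 to 37.4 CPM (2.84 ± 0.32, adjusted p = 3.98e-04). The mTOR inhibitor Ddit4 rose by 3.94 ± 0.48 (adjusted p = 6.10e-04), and the sestrin Sesn1, a negative regulator of mTOR, fell (-1.35 ± 0.23, adjusted p = 0.00246). In TEPP-46 against control cells Rragd (-2.81 ± 0.33, adjusted p = 0.00189) and Eif4ebp1 (-2.28 ± 0.35, 0.00407) fell, and Sesn1 (1.46 ± 0.23, 0.00517) and the arginine sensor Castor1 (1.28 ± 0.28, 0.0169) rose, where 6.43% of all genes fell and 9.72% rose. Rragd was at 4.93, 5.44 and 3.87 CPM in TEPP-46 replicates 1, 4 and 5, and had 514 reads in total over all 9 libraries. Eif4ebp1 stood at 69.8, 26.8 and 30.9 CPM in these 3 libraries.

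Among chaperones and importers of ribosomal proteins, and factors that mature and export the subunits, every gene that passed the test in TEPP-46 cells against either other group was lower. Of all genes, 6.43% were lower than in control cells and 3.92% lower than in resting cells. Of 16 chaperones and importers, 3 rose and 2 fell at activation (15.5% and 15.8% of all genes), among them the importers Ipo5 (1.49 ± 0.35, adjusted p = 0.0106) and Ipo7 (1.48 ± 0.38, 0.015) upward and Bccip (-0.70 ± 0.18, 0.0141), a chaperone of Rpl23, downward. In TEPP-46 against control cells Ipo5 (-1.52 ± 0.36, adjusted p = 0.0204), Ipo7 (-1.45 ± 0.38, 0.0298) and Nap1l1 fell and none of the 16 rose, with a median of -0.38. Of 18 maturation and export factors, 1, Lsg1, fell at activation (-0.84 ± 0.25, adjusted p = 0.027) and none rose. In TEPP-46 against control cells 5 fell and none rose, with a median of -0.42. The nucleolar GTPase Gtpbp4 stood at 113 to 114 CPM in control and 53.5 to 58.3 CPM in TEPP-46 libraries (-1.01 ± 0.18, adjusted p = 0.00719). Bysl (-1.43 ± 0.34, adjusted p = 0.0212), Nob1 (-0.98 ± 0.26, 0.0325) and the export receptor Xpo1 (-1.04 ± 0.29, 0.0369) act on small or both subunits. Against rest, 5 of 18 also fell in TEPP-46 cells, among them Gtpbp4 (-0.88 ± 0.18, adjusted p = 0.0144), Mdn1 (-1.77 ± 0.39, 0.0212) and Xpo1 (-1.22 ± 0.29, 0.0281), with a median of -0.68. Of the 16 chaperones, 3 fell there, Bccip (-0.86 ± 0.18, adjusted p = 0.0157), Heatr3 (-0.96 ± 0.25, 0.0359) and Grwd1 (-1.58 ± 0.44, 0.046).

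The p53 pathway, which free ribosomal proteins can engage through Mdm2, was followed with 9 genes. At activation Cdkn1a (4.37 ± 0.81, adjusted p = 0.00343) and Bbc3 (1.62 ± 0.32, 0.00472) rose and Sesn1 fell, beside 15.5% and 15.8% of all genes. In TEPP-46 against control cells only Sesn1 of the 9 passed, upward (9.72% of all genes). Against rest Bbc3 (1.29 ± 0.32, adjusted p = 0.0321) and Cdkn1a (2.88 ± 0.77, 0.0408) rose in TEPP-46 cells, as did 6.37% of all genes. Mdm2 itself gave 0.24 ± 0.23 at activation (adjusted p = 0.450) and 0.18 ± 0.23 with TEPP-46 (0.606). Of 13 tested genes listed as signs of RNA quality, 2 (Gapdh and mt-Co1) rose and 3 (mt-Cytb, mt-Nd2 and mt-Nd4) fell at activation. Of all genes, 15.5% and 15.8% did. In TEPP-46 against control cells 1 (mt-Nd4) rose, beside 9.72% of all genes. Against rest 1 (Gapdh) rose and 1 (mt-Nd2) fell, beside 6.37% and 3.92%. Malat1 passed in none of the 3 comparisons. Whether these calls reflect RNA quality was not tested.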

How the data were processed

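RNA of 9 libraries was measured by sequencing. In 1 table deposited by the authors, values are raw counts of reads per gene, as whole numbers without normalization. GRCm38 is the build and DESeq2 a tool listed per the submitters' processing notes. No source used here names the aligner, counting program, strand setting, annotation release or rule for reads with several matches. Of 47937 identifiers, 47310 were paired with a GENCODE M21 symbol and 627 were not; 52 of the 83 members matched in version. Genes on opposite strands cannot be told apart without the strand setting.

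Genes passed filterByExpr by group (minimum count 10, minimum total 15), which left 12536. Counts were scaled by TMM and fitted with glmQLFit and glmQLFTest of edgeR 4.0.16 (R 4.3.3) over all 9 libraries by group, two-sided, with Benjamini-Hochberg adjustment and a threshold of 0.05. The biological coefficient of variation was 0.33 with 6 residual degrees of freedom. Counting floors cover counting error only. The script was tested on simulated data. Alternatives used limma 3.58.1, DESeq2 1.42.0, other scalings and filters, fewer libraries and a replicate block. Uniqueness was computed against GENCODE M21 transcripts of other genes and not against the genome, and promoter sequence is RefSeq's on GRCm38.p6.

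The members, the gene lists and the rule for naming genes were chosen with earlier results of these data known. The rule named, in each comparison, up to 8 members per direction past the threshold or, with fewer than 3, the 3 of smallest p, the 5 highest and 5 lowest by level per length, a fixed set of members with known paralogs or further roles, and up to 4 genes of each list by p. Rps2, Rps29, Rpl30, Rpl21, Rpl35 and Mdm2 were named outside it, after their values were seen. A few members covered by this rule have been left out of the text.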

Additional observations from a re-analysis of the deposited data

How the results depend on the processing

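Of the alternatives to the member counts and medians, 129 gave a value within 1.5 times or 1 SD and 27 did not, leave-one-out aside. For control against resting cells the number of members higher (3) became 5 with total counts only, where 2233 of 12536 genes were higher, and 6 with DESeq2. It became 8 without the filter, where 2213 of 23436 genes were higher. It became 35 with quality weights, 38 with only the 2 groups, and 0 when scaled to the summed member counts, where 625 of 12536 genes were higher. With that scaling, an alternative chosen after seeing the data gave 1 without TEPP-46 replicate 4, 0 with the replicate block and 1 with DESeq2, and the median was 0.017, 0.016 and 0.017 there (0.017 with edgeR). The number lower (0) became 4, 1, 2 and 1 with quality weights, the 2 groups, and the scaling to members without TEPP-46 replicate 4 or with DESeq2. With that scaling, 1214 of 12899 genes were higher and 2866 lower without TEPP-46 replicate 4. Of 12536 genes, 495 were higher and 569 lower with the replicate block, and 837 and 1542 with DESeq2. For TEPP-46 against control cells the number lower (1) became 43 with quality weights, 2 without the filter, 0 with only the 2 groups, 0 with the replicate block and 0 under every scaling to members. Of all genes, 1127 of 23436 were lower there without the filter and 560 of 12536 with the replicate block. Scaled to members, 143 of 12536 genes were lower there with edgeR, 48 with the replicate block and 346 with DESeq2. Without TEPP-46 replicate 4 that scaling gave 294 of 12899. For TEPP-46 against resting cells quality weights gave 1 higher and 8 lower. With quality weights the share of all genes called was 28.7% higher and 29.6% lower, 23.8% lower, and 14.4% higher and 12.4% lower in these 3 comparisons. Leaving out 1 library gave 0 to 17 members higher for control against resting (median 0.36 to 0.61), 0 to 49 lower for TEPP-46 against control (median -0.99 to 0.07), and 0 to 3 higher and 0 to 6 lower for TEPP-46 against resting (median -0.57 to 0.50). The log2 ratio of summed CPM ranged over 0.34 to 0.58, -0.97 to 0.04 and -0.52 to 0.49. Same-numbered libraries correlated at -0.12 to 0.09, so the numbers were not taken as a pairing, and the labels do not state a shared origin. With the replicate block 2 members were higher at activation, as were 1673 of 12536 genes. Leave-one-out aside, named members kept their side of the threshold in 1456 of their alternative values, gained it in 60 and lost it in 17, and on leaving out 1 library they kept it in 807, gained it in 35 and lost it in 22. Most kept values belong to members that were called in neither fit. Losses could come only from the calls of Rps27l, Rpl22 and Rpl28 at activation and of Rps14 with TEPP-46. Each of these calls was lost on leaving out most of the libraries it compared, as given above. The cause of these differences was not tested. With 2397304 to 5030643 counts per library, Rpl10l, Rpl3l and Rpl39l had too few reads to be tested.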
